A study of Mus musculus with 12 samples.

Results

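Polysome loading under control conditions was measured in wild-type mouse neural progenitor cells, by comparing 3 libraries of polysome mRNA with 3 libraries of total mRNA from cells that received only DMSO, the solvent. These 6 libraries were chosen by their titles from the 12 of the series. The other 6 are the same fractions from cells given Torin1, which blocks the kinase mTOR, at 250 nM, and are compared below only where the treatments are set side by side, though they share the filter on low values and the estimate of spread with the DMSO libraries. Cortices were taken from embryos at E13.5, dissociated and kept overnight with the growth factors bFGF and EGF. They received DMSO or Torin1 for 2 h and cycloheximide, which holds ribosomes on the mRNA, at 100 ug/ml for the last 5 min. A share of 10% of the lysate served as total mRNA, and the remainder ran on a sucrose gradient, from which fractions of mRNAs with more than 3 ribosomes gave the polysome mRNA. The labels call the 3 libraries of a group biological replicates, and they do not say whether each came from its own litter. The p-values therefore measure the spread between these samples.

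An mRNA is translated by several ribosomes in a row, and the number it carries depends on how often translation starts, how fast ribosomes move and how long the reading frame is. mTOR promotes initiation, most of all on mRNAs with a 5′ terminal oligopyrimidine tract (TOP mRNAs), which encode ribosomal proteins and elongation factors. In cortical progenitors, which divide quickly, mTOR is active and ribosome production is high.

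The value of a gene is its share of a library in ppm, in units of the column total, after scaling by a trimmed mean of log ratios. The values look as if divided by gene length: among pseudogenes the median of the smallest value above 0 was 0.525 ppm in the shortest class of span, which starts at 300 bases, and 0.120 ppm in the longest, which starts at 1500 bases. No source used here states this, and summed shares below are shares of the deposited signal, which then weigh short genes more than shares of reads would. A log2 ratio is the polysome value minus the total value on the log2 scale, given with its standard error from limma and with n = 3 libraries in each group. A ratio of 0 therefore means an average share of the polysome mRNA, not an absence of ribosomes. "Higher" and "lower" in polysomes mean an adjusted p under 0.05 over all 20240 genes tested, of 53351 in the deposited table. Genes with a mean of at least 3 on the log2 ppm scale, 9220 in number, are called expressed.

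Column totals of the 6 DMSO libraries ran from 16269262 to 19201406. The total libraries correlated at r = 0.988 to 0.99 with each other and the polysome libraries at 0.99 to 0.991, over expressed genes, which are not independent replicates. Polysome replicate 2 stood apart, with a scaling factor of 0.907 against 0.815 in the other 2 polysome libraries. It had the lowest polysome value for 76 of 79 ribosomal protein genes and for 11 of the 12 expressed genes with the highest ratios named by rule. Radial glia genes summed to between 5866 and 6036 ppm in total mRNA, and neuronal genes to between 6659 and 6804 ppm. The defining microglia markers Csf1r, Cx3cr1, P2ry12 and Aif1 were each at or below 3.70 ppm after rounding in every DMSO library, and Gfap and Sox10 at or below 0.496 ppm. The embryonic globin and blood list summed to between 1525 and 1635 ppm in total mRNA, so blood RNA was present.

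Polysome and total mRNA differed in composition for a large part of the transcriptome. Of 20240 genes 8306 (41%) were called, 4159 (20.5%) higher and 4147 (20.5%) lower in polysomes. A change of at least 2-fold was reached by 975 of the higher and 1558 of the lower genes. The split depends on the scaling. When values were divided by the column total only, which moved the median of all genes by -0.33, 1853 (9.16%) were higher and 6708 (33.1%) lower, and all 1853 and all 4147 calls in those directions were shared by both scalings. With the 6 DMSO libraries fitted alone 8759 genes were called, 4510 of them higher. The polysome and total libraries did not overlap for 10770 genes (53.2%). Genes named by rule for the highest or lowest ratios were taken from called genes without overlap. Their call and their separation were therefore fixed by that choice. Among the 9220 expressed genes 39.1% were higher and 26.9% lower, and lists made up mostly of expressed genes are read against these shares. The split with the column total stands in brackets.

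**Figure D1:**
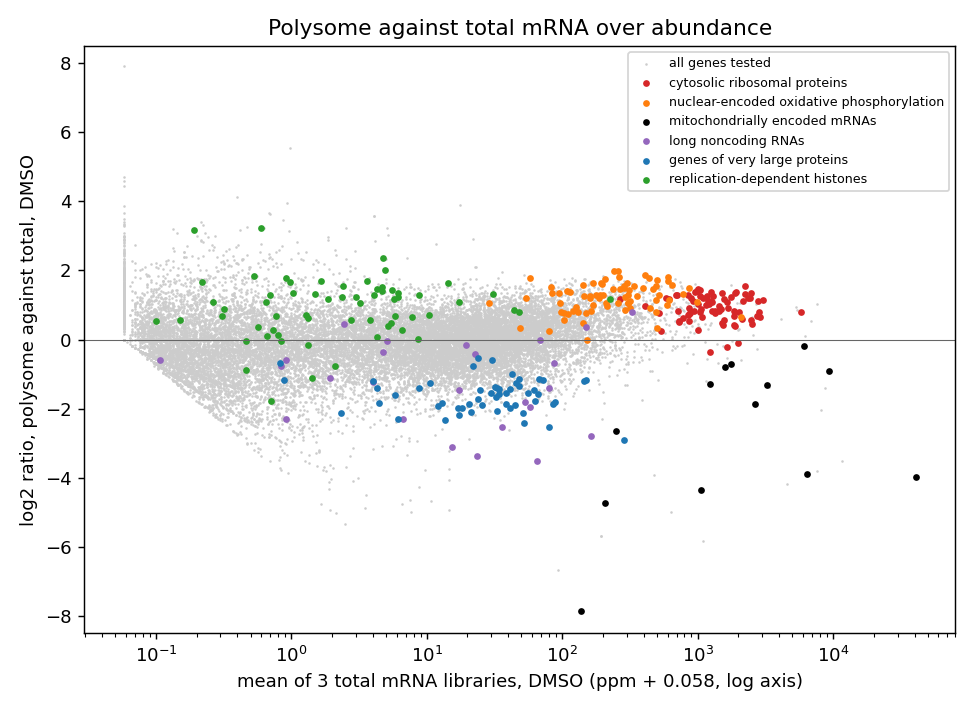
The log2 ratio of polysome to total mRNA (vertical axis) is plotted for 20240 genes against the mean of the 3 total libraries (horizontal log axis, ppm plus a pseudocount), DMSO cells. Ribosomal protein and oxidative phosphorylation genes lie above 0 with few exceptions, and mitochondrially encoded RNAs, most long noncoding RNAs and genes of very large proteins lie below 0. The list of very large proteins was drawn up after values had been seen.

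Lists of RNAs that cytosolic ribosomes do not translate had medians below that of all genes, -0.035. Of 25 long noncoding RNAs tested 13 were lower and 2 higher, with a median log2 ratio of -1.12 (19 lower and 0 higher with the column total). Malat1, a nuclear speckle RNA (chromosome 19 from 5795690 to 5802672, GRCm38), had 58.1, 68.2 and 68.4 ppm in total mRNA and 6.68, 3.58 and 7.58 ppm in polysome mRNA. Every total library was above every polysome library, as a rule that named it required, with a log2 ratio of -3.50 ± 0.32 (adjusted p = 4.34e-06). Rian, from the imprinted Dlk1-Dio3 region (chromosome 12 from 109603945 to 109661716), had 166, 167 and 161 ppm in total mRNA and 23.9, 20.7 and 26.2 ppm in polysome mRNA, a log2 ratio of -2.80 ± 0.079 (adjusted p = 4.93e-09). The groups were again apart, as the rule that named Rian required. The 2 other transcripts of that region in the list, Meg3 and Mirg, had ratios of -1.94 (adjusted p = 2.86e-06) and -1.12 (adjusted p = 0.0972). Mir124a-1hg, the host of a neuronal microRNA, had a ratio of -3.36 and H19, an imprinted RNA, one of -3.12. Pantr1 was on the other side at 0.79, with 299, 259.9 and 428 ppm in total mRNA and 619, 446 and 621 ppm in polysome mRNA. Its 3 polysome libraries were all above its 3 total libraries, of which replicate 3 was the highest, and with the column total its ratio was 0.41 and not called. The other higher member, Mir9-3hg, had a ratio of 0.37, and with the column total it was not called.

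Of 15 host genes of small nucleolar RNAs, whose spliced transcripts mostly hold no long reading frame, 9 were lower and 2 higher, with a median of -0.60 (10 lower and 0 higher with the column total). Snhg12 had 103, 103 and 114 ppm in total mRNA and 31.3, 40.3 and 48.5 ppm in polysome mRNA, a ratio of -1.44 ± 0.15 (adjusted p = 9.55e-06). Gas5, itself a TOP transcript, had a ratio of -1.04 ± 0.14 (adjusted p = 6.36e-05), with 240.5, 247 and 268 ppm in total mRNA and 131, 103 and 137 ppm in polysomes. The higher members were Snhg3 (0.65) and Snhg18 (0.62). Small structured RNAs were listed for 6 genes, of which 3 were lower and 0 higher, also with the column total. Rn7s1 and Rn7s2, copies of the signal recognition particle RNA with identical values, had 80.7, 103 and 401 ppm in total mRNA and 2.65, 2.51 and 3.40 ppm in polysome mRNA. Total replicate 3 was the highest by a wide margin, and leaving replicate number 3 out kept 1 of the 3 calls. Rn7sk, which holds back the elongation factor P-TEFb, had 38.7, 59.9 and 183 ppm in total mRNA and 1.17, 0 and 5.61 ppm in polysome mRNA, so 1 polysome library was listed at 0.

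The 13 mRNAs of the mitochondrial genome, which ribosomes inside mitochondria translate, summed to 8.22% ± 0.14 (SD, n = 3) of the total libraries and to 1.57% ± 0.44 of the polysome libraries. Of these, 10 were lower and 0 higher, with a median of -1.88 (12 and 0 with the column total). mt-Nd1, a complex I subunit, had 6502, 6623 and 6305 ppm in total mRNA and 590.2, 288 and 489 ppm in polysome mRNA, a ratio of -3.89 ± 0.20 (adjusted p = 3.05e-07). mt-Atp8, an ATP synthase subunit, fell further, with 41595, 41507 and 39712 ppm in total mRNA and 4144, 1530.3 and 2729 ppm in polysome mRNA and a ratio of -3.98 ± 0.28 (adjusted p = 1.04e-06). Both lay below total mRNA in every polysome library, as a rule that named them required, and polysome replicate 2 was the lowest of the 3. At the other end mt-Cytb had 6088, 6211 and 5978 ppm in total mRNA and 6967, 3938 and 5452 ppm in polysome mRNA, and its groups overlapped (adjusted p = 0.429). mt-Co1 fell by 0.90 ± 0.22 on the log2 scale (adjusted p = 0.00535). mt-Co2 was listed at 0 in 2 polysome libraries and had 74.1, 194 and 148 ppm in total mRNA, and leaving out libraries took its call away. Copies of mitochondrial sequence lie in the nuclear genome, and no source used here says how reads that match both were counted. The ribosomal RNAs of mitochondria, mt-Rnr1 and mt-Rnr2, had ratios of -3.92 and -4.99.

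mRNAs of cytosolic ribosomal proteins were over-represented on polysomes almost without exception. Of 79 genes 76 were higher and 1 was lower, with a median log2 ratio of 0.92 (61 higher and 3 lower with the column total, median 0.55). Their sum rose from 12.8% ± 0.059 (SD, n = 3) of the total libraries to 19.1% ± 1.39 of the polysome libraries. The large subunit (46 of 47 genes higher, median 1.01) and the small subunit (30 of 32, median 0.90) had similar medians. With quantile normalization, which forces all libraries to 1 distribution, 42 were higher and 6 lower, and the median was 0.26. Ribosomal protein genes have many processed pseudogenes, so reads of near-identical copies may be split in ways that cannot be told from the table.

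TOP mRNAs begin with a cytosine followed by pyrimidines, the feature through which mTOR controls them. The following 30 bases around an annotated RefSeq start (GRCm38.p6, transcript strand, 10 bases before the start and 20 from it) show this run, in capitals, for 4 ribosomal protein genes and for 2 TOP mRNAs that encode other proteins, chosen after their values were seen and with ratios from -0.11 to 1.55. Where a gene had several annotated starts, the first with such a run is shown.
Rpl38: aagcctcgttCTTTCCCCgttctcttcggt
Rps15a: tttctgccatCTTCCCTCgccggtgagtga
Rps27: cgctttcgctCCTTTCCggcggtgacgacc
Rps6: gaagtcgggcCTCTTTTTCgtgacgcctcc
Rack1: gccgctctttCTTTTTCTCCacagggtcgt
Nap1l1: gctctcgggtCTTTTTTagcgccatctgct
The run of Rpl38 holds 8 bases, that of Rps15a 8, of Rps27 7, of Rps6 9, of Rack1 10 and of Nap1l1 7. These genes were kept from a longer hand-picked set because an annotated start of theirs holds such a run, so its presence was fixed by the choice. The bases shown for Rpl38 run from 114668570 to 114668599 on chromosome 11, inside its RefSeq span, which starts at 114667818. Of 58 ribosomal protein genes with a RefSeq window, 24.1% had a start with C and at least 4 further pyrimidines.

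Rpl38, a large subunit protein, had 2255, 2288 and 2186 ppm in total mRNA and 7233, 5467 and 7221 ppm in polysome mRNA, a ratio of 1.55 ± 0.15 (adjusted p = 5.26e-06) and the highest of the list. Rps15a had a ratio of 1.19 ± 0.15 (adjusted p = 5.45e-05), Rps27 one of 1.13 ± 0.17 (adjusted p = 0.000182) and Rps6, the ribosomal target of S6 kinase, one of 0.84 ± 0.12 (adjusted p = 0.000121). In these 4 genes every polysome library was above every total library, and polysome replicate 2 was the lowest polysome library. Rack1, a scaffold on the small subunit, had 939, 879 and 899 ppm in total mRNA and 1176, 1162 and 1264 ppm in polysome mRNA, a smaller ratio of 0.41 ± 0.08 (adjusted p = 0.00128), which was 0.031 with the column total. Nap1l1, a histone chaperone, had 443, 452 and 454 ppm in total mRNA and 422, 416 and 414 ppm in polysome mRNA, and its polysome libraries lay below its total libraries by a margin that did not pass the test (ratio -0.11, adjusted p = 0.365).

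The 3 ribosomal protein mRNAs that were not higher were Rpsa, Rplp0 and Rps2. Rpsa, which also serves as the laminin receptor, had 1204, 1283 and 1212 ppm in total mRNA and 941, 916 and 1011 ppm in polysome mRNA, a ratio of -0.37 ± 0.09 (adjusted p = 0.00572). Its 3 polysome libraries were all below its 3 total libraries. Rplp0, of the ribosomal stalk, had a ratio of -0.21 (adjusted p = 0.0995) and Rps2 one of -0.11 (adjusted p = 0.473). Rpl41, which encodes the smallest ribosomal protein, had 2701, 2924 and 2624 ppm in total mRNA and 5055, 3302 and 5172 ppm in polysome mRNA, a ratio of 0.69 ± 0.18 (adjusted p = 0.00866). Polysome replicate 2 was far below the other polysome libraries here, and with quantile normalization the ratio was -0.029 and not called.

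The 24 other TOP mRNAs were split, with 11 higher and 6 lower and a median of 0.15, which turned to -0.22 with the column total (6 higher, 11 lower) and to -0.36 with quantile normalization. Their shares, 45.8% higher and 25% lower, were not far from the 39.1% and 26.9% of expressed genes. Btf3 and Naca, the subunits of the nascent polypeptide-associated complex, were the highest, with 1025, 1041 and 989 ppm in total mRNA and 2831, 2262 and 2529 ppm in polysome mRNA for Btf3 and a ratio of 1.31 ± 0.13 (adjusted p = 9.37e-06), and a ratio of 1.14 for Naca, which was also called. Subunits of the elongation factor eEF1 ranged from 0.014 for Eef1g to 0.71 for Eef1d. Eef1a1, which brings aminoacyl-tRNA to the ribosome, had 6150.3, 6281 and 6141 ppm in total mRNA and 6684, 6711 and 6667 ppm in polysome mRNA. Its polysome values were above its total values in all libraries by a margin that did not pass the test (adjusted p = 0.471). Eef2, the translocation factor, was lower at -0.57 ± 0.087 (adjusted p = 0.000202), with 1166, 1189 and 1146 ppm in total mRNA and 776, 804 and 780.5 ppm in polysome mRNA. Tpt1 had a ratio of -0.041 (adjusted p = 0.797). The lowest was Pabpc1, the cytosolic poly(A)-binding protein (chromosome 15 from 36595658 to 36609581), which had 394, 379.5 and 397 ppm in total mRNA and 115, 119 and 117 ppm in polysome mRNA, a ratio of -1.74 ± 0.09 (adjusted p = 3.05e-07). A rule that named it required separate groups, and the spread among its polysome libraries was a few ppm. Larp1, the protein that binds TOP mRNAs when mTOR is inhibited, was lower at -0.86.

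mRNAs of initiation factors separated by subunit. Of 34 genes 20 were higher and 6 lower, with a median of 0.42 (13 higher and 12 lower with the column total, and a median of -0.036 with quantile normalization). Eif5a, which helps ribosomes through difficult peptide bonds, was the highest at 1.05 ± 0.081 (adjusted p = 1.71e-06), with 859, 852 and 827 ppm in total mRNA and 1747, 1732 and 1791 ppm in polysome mRNA. The helicase Eif4a1 had a ratio of 0.88, the start-site factor Eif1 one of 0.70 and the cap-binding protein Eif4e one of 0.68. All 5 subunits of the exchange factor eIF2B were higher, between 0.37 and 0.83. The scaffolds were on the other side, with ratios of -1.16 for Eif4g3 and -0.51 for Eif4g1. Eif5b, the subunit-joining GTPase, had 42.9, 40.5 and 42.5 ppm in total mRNA and 16.3, 10.6 and 14.4 ppm in polysome mRNA, a ratio of -1.63 ± 0.18 (adjusted p = 1.92e-05). Among 13 subunits of eIF3, which holds the small subunit on the mRNA, 7 were higher and 3 lower, and ratios ran from -1.63 for Eif3a to 1.02 for Eif3i. Eif3a had 117, 119 and 123 ppm in total mRNA and 41.2, 37.7 and 37.4 ppm in polysome mRNA, so genes whose proteins sit in 1 complex lay on opposite sides.

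Aminoacyl-tRNA synthetases, which charge tRNAs, had 7 of 20 members higher and 5 lower, a median of 0.15 that was -0.23 with the column total (0 higher, 10 lower) and -0.20 with quantile normalization. The lowest was Eprs, the fused glutamyl and prolyl enzyme, with 58.4, 59.1 and 58.8 ppm in total mRNA and 21.6, 23.9 and 19.3 ppm in polysome mRNA and a ratio of -1.45 ± 0.10 (adjusted p = 1.04e-06). Lars followed at -0.73, and Hars was the highest at 0.48. Ribosome biogenesis factors had 22 of 60 higher and 14 lower (11 and 28 with the column total). Neither list was far from the shares of expressed genes, with 35% higher and 25% lower for synthetases and 36.7% and 23.3% for biogenesis factors. Nop10, a protein of the pseudouridylation complex, had 84.9, 88.3 and 86.2 ppm in total mRNA and 264, 212 and 251 ppm in polysome mRNA, a ratio of 1.48 ± 0.12 (adjusted p = 1.97e-06). Utp20, a component of the small subunit processome, had 14.7, 12.6 and 13.1 ppm in total mRNA and 4.92, 5.00 and 4.76 ppm in polysome mRNA, a ratio of -1.45 ± 0.19 (adjusted p = 7.32e-05). Their groups did not overlap, in opposite directions.

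**Figure D2:**
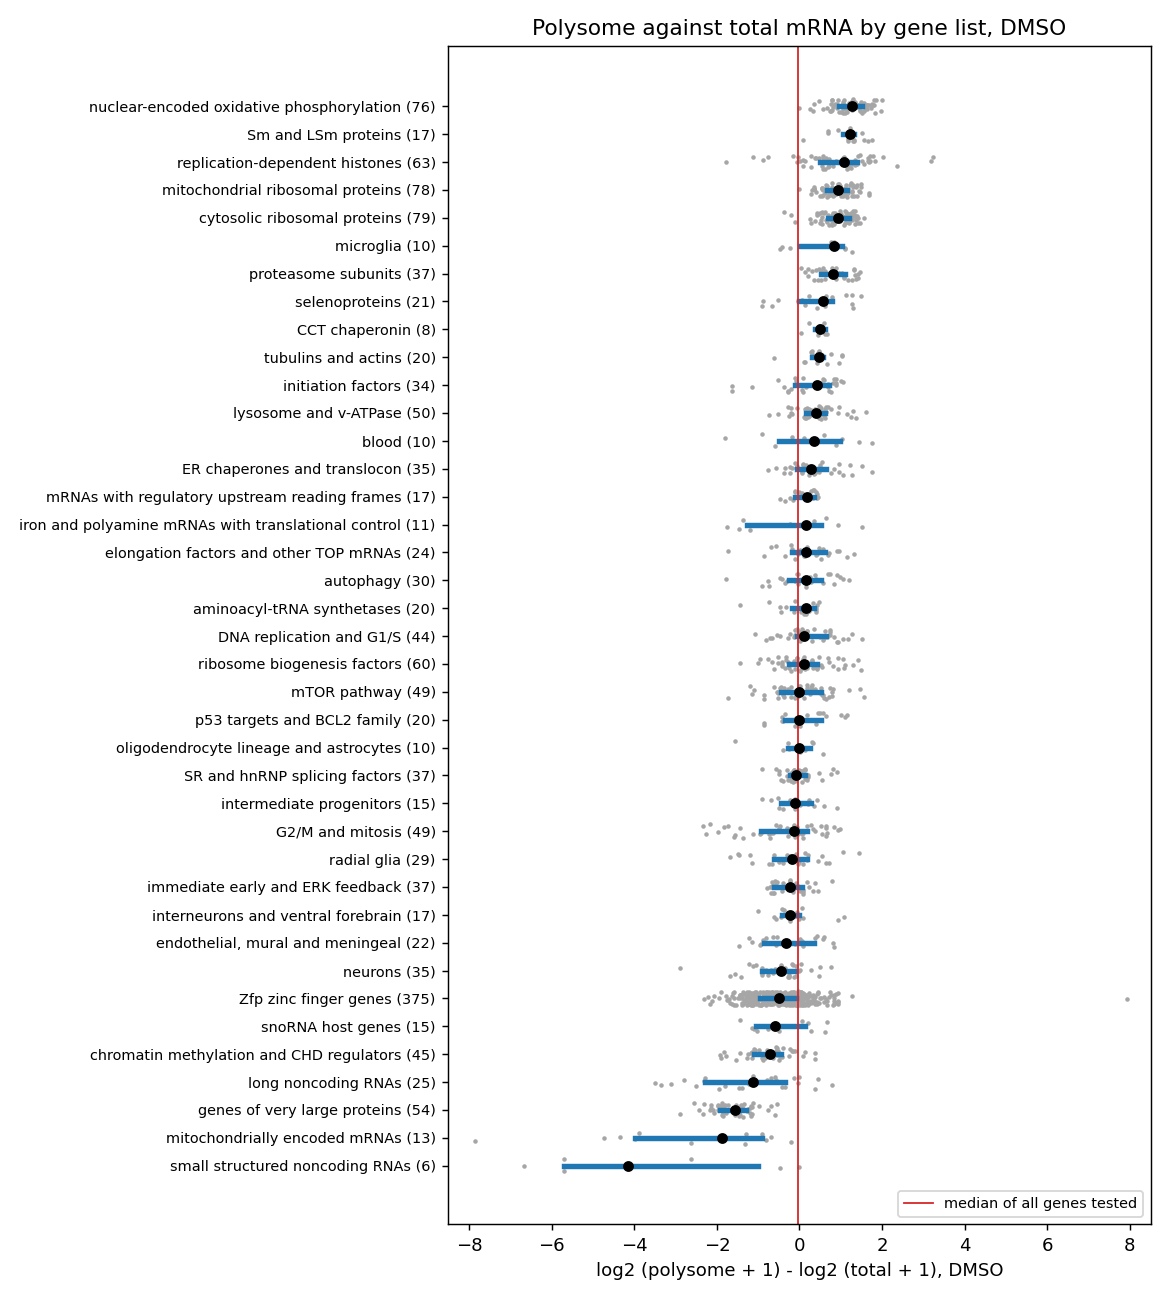
Log2 ratio of polysome to total mRNA (horizontal axis) of each tested gene (grey points) in 39 gene lists (vertical axis, number of genes in brackets), DMSO cells; black points are medians and blue bars the middle range from the lower to the upper quartile. Lists run from oxidative phosphorylation at a median of 1.26 to small structured noncoding RNAs at -4.16, and the red line is the median of all genes at -0.035.

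Nuclear genes of the respiratory chain had the highest median of the 39 lists on the scale used here, but not with quantile normalization, where histones (1.15), microglia genes (1.00) and Sm and LSm proteins (0.67) were above them. Of 76 oxidative phosphorylation genes 75 were higher and 0 lower, with a median of 1.26 (69 higher and 1 lower with the column total, and a median of 0.63 with quantile normalization). Their sum rose from 2.57% ± 0.016 (SD, n = 3) of total to 4.86% ± 0.27 of polysome mRNA. Cox7a2, a subunit of complex IV (chromosome 9 from 79755241 to 79771422), had 243, 239 and 239.5 ppm in total mRNA and 1069, 793 and 1032 ppm in polysome mRNA, a ratio of 1.99 ± 0.16 (adjusted p = 2.25e-06). The ATP synthase genes Atp5j2 and Atp5k had ratios of 1.98 ± 0.16 (adjusted p = 2.86e-06) and 1.86 ± 0.17 (adjusted p = 3.99e-06). Each had polysome values above all total values, which the rule that named them required, with polysome replicate 2 the lowest of the 3. The 37 Nduf genes, counted as complex I by name alone, were all higher. Ndufa2 had 1.82 and Ndufa4 1.80, while Ndufs1 (0.34) and Ndufv1 (0.56) were closer to 0. Complex III had 9 of 9 higher (median 1.26), complex IV 10 of 10 (1.31) and ATP synthase 15 of 15 (1.06), in which the catalytic core genes Atp5a1 (0.33) and Atp5b (0.66) were among the lowest. Sdha, the flavoprotein of complex II, was the exception of the list, with 149, 156 and 154 ppm in total mRNA and 164, 159 and 133 ppm in polysome mRNA and overlapping groups (ratio -0.017, adjusted p = 0.895). Among the 12 highest expressed genes named by rule were Pet100 (2.11) and Sdhaf4 (1.95), which help assemble complexes IV and II, and Chchd1 (1.84), a mitochondrial ribosomal protein.

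Mitochondrial ribosomal proteins, made in the cytosol and imported, had 76 of 78 genes higher and 0 lower, with a median of 0.93 (57 higher and 1 lower with the column total). Mrpl20 had 158, 163 and 157 ppm in total mRNA and 549, 434 and 560.3 ppm in polysome mRNA, a ratio of 1.68 ± 0.11 (adjusted p = 7.57e-07), and Mrpl33 one of 1.68. Mrps2 was not called, with a mean ± SD (n = 3) of 29.4 ± 1.9 ppm in total mRNA and 29.3 ± 0.85 ppm in polysome mRNA and overlapping groups. The nuclear genes of the mitochondrial translation and respiratory machinery thus lay on the opposite side from the 13 mRNAs of the mitochondrial genome.

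Genes of the proteasome and of the rings around spliceosomal RNAs lay in the same direction. Of 37 proteasome genes 32 were higher and 0 lower, with a median of 0.81 (23 higher and 1 lower with the column total). The core particle, which degrades the protein, had 15 of 17 higher and a median of 1.17. The regulatory particle, which unfolds it, had 17 of 20 higher and a median of 0.52. Psma2, a ring subunit of the core, had 71.4, 70.3 and 68.5 ppm in total mRNA and 212, 159 and 219 ppm in polysome mRNA, a ratio of 1.47 ± 0.16 (adjusted p = 1.92e-05). Psmd1, a scaffold of the regulatory particle, had 103, 103 and 99.6 ppm in total mRNA and 109.7, 106 and 94.5 ppm in polysome mRNA and a ratio of 0.025 (adjusted p = 0.859). The first gene was separated in all libraries and the other overlapped. Sm and LSm proteins, which form the rings of spliceosomal RNAs, had 16 of 17 higher and 0 lower, also with the column total, with a median of 1.22, and this list was drawn up after values had been seen. Snrpd2 had 143, 148 and 145 ppm in total mRNA and 518, 408 and 557 ppm in polysome mRNA, a ratio of 1.75 ± 0.14 (adjusted p = 1.96e-06), and the exception was Lsm11 at 0.087 (adjusted p = 0.65). The SR and hnRNP splicing factors, by contrast, had 6 of 37 higher and 11 lower (3 and 25 with the column total, 1 and 29 with quantile normalization), with Srsf7 at 0.90 and Hnrnpu at -0.90.

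The CCT chaperonin, which folds tubulin and actin, had 6 of 8 genes higher and 0 lower (2 higher and 1 lower with the column total), and its median of 0.49 was -0.14 with quantile normalization. Tubulins, actins and their small partners had 16 of 20 higher and 1 lower, with a median of 0.46 that was -0.13 with quantile normalization (5 higher and 1 lower with the column total). Tmsb10, an actin-binding peptide, had 7668, 7584 and 7418 ppm in total mRNA and 17032, 13208 and 16408 ppm in polysome mRNA, a ratio of 1.03 ± 0.14 (adjusted p = 7.06e-05). Stmn1, which sequesters tubulin, had a ratio of 1.02 ± 0.10 (adjusted p = 8.61e-06). The lower member was Actb, with 2043, 2219 and 2051 ppm in total mRNA and 1255, 1511 and 1393 ppm in polysome mRNA and a ratio of -0.61 ± 0.11 (adjusted p = 0.000556), and all its polysome libraries were below all its total libraries. Among endoplasmic reticulum genes 19 of 35 were higher and 6 lower (9 and 13 with the column total, and a median of -0.035 with quantile normalization). Sec61g, a subunit of the translocon, had 157, 145 and 139 ppm in total mRNA and 558, 378 and 575 ppm in polysome mRNA, a ratio of 1.75 ± 0.19 (adjusted p = 1.3e-05). Hspa5, the main chaperone there, had 181, 199.7 and 186 ppm in total mRNA and 178, 186 and 182 ppm in polysome mRNA and a ratio of -0.053, and Sec63 was the lowest at -0.76.

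Lgals1, which encodes a galactoside-binding lectin (chromosome 15 from 78926725 to 78930465), was among the highest ratios of expressed genes. It had 244, 232 and 231 ppm in total mRNA and 1009.7, 823 and 1101 ppm in polysome mRNA, a ratio of 2.04 ± 0.16 (adjusted p = 1.68e-06). S100a10, the light chain of an annexin complex, had 49.2, 54.0 and 53.5 ppm in total mRNA and 217, 149 and 212 ppm in polysome mRNA, a ratio of 1.86 ± 0.18 (adjusted p = 6.56e-06). Both genes were named by a rule that required a call and separated libraries, so the separation adds nothing. Replicate 2 was the lowest of the polysome libraries in both.

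**Figure D3:**
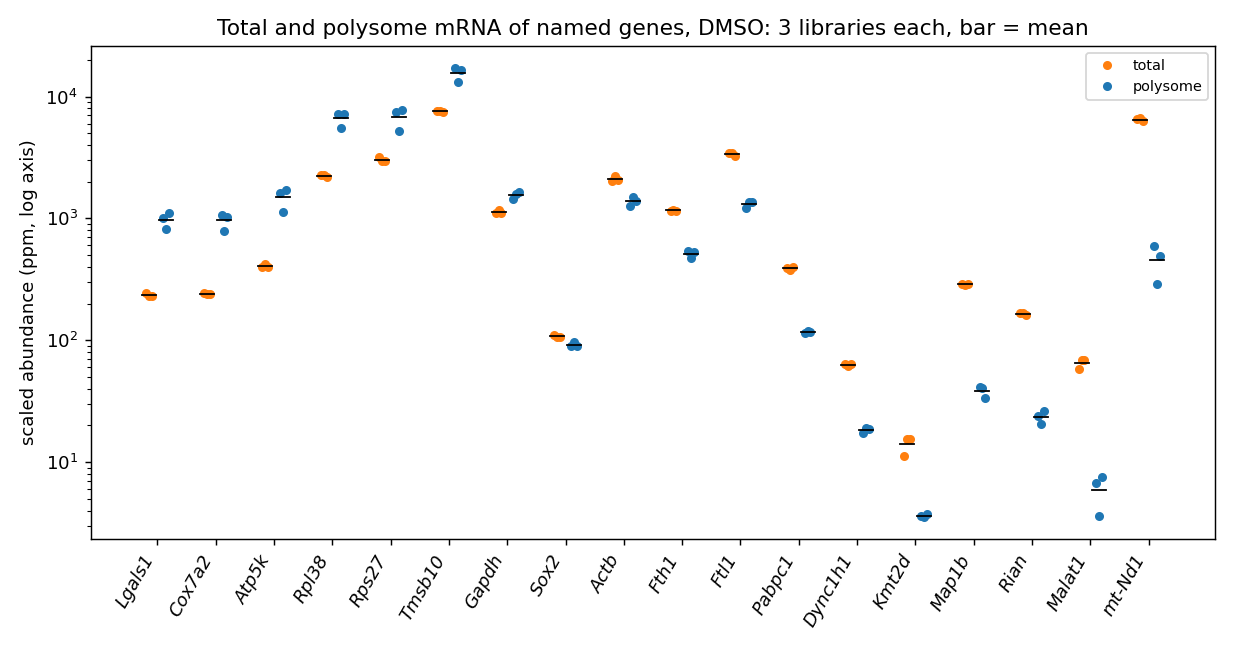
Scaled abundance (vertical log axis, ppm) of 18 genes in the 3 total (orange) and 3 polysome (blue) libraries of DMSO cells, with bars at the means. Genes run from Lgals1, with polysome values of 823 to 1101 ppm above total values of 231 to 244 ppm, to mt-Nd1, with polysome values of 288 to 590.2 ppm below total values of 6305 to 6623 ppm.

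The mRNAs listed for very large proteins lay at the other end. This list was drawn up after values had been seen, so its counts do not test a relation to protein size. Of its 54 genes 53 were lower and 0 higher, with a median of -1.57 (54 lower with the column total). Map1b, a microtubule-associated protein of neurons (chromosome 13 from 99421464 to 99516602), had 289, 284 and 289 ppm in total mRNA and 41.3, 40.6 and 33.7 ppm in polysome mRNA, a ratio of -2.90 ± 0.10 (adjusted p = 1.25e-08). Dync1h1, the dynein heavy chain (chromosome 12 from 110601395 to 110666944), had 63.9, 61.9 and 63.6 ppm in total mRNA and 17.4, 19.1 and 18.7 ppm in polysome mRNA, a ratio of -1.78 ± 0.082 (adjusted p = 2.07e-07). Atrx, a chromatin remodeller, had 75.6, 76.6 and 87.8 ppm in total mRNA and 17.0, 11.5 and 13.0 ppm in polysome mRNA, a ratio of -2.54 ± 0.18 (adjusted p = 1.09e-06). All polysome libraries of Dync1h1 were far below all its total libraries. For Map1b and Atrx a rule that named them required separate libraries. Prrc2c (-2.42), Golgb1 (-2.17), a Golgi tether, and Prkdc (-2.13), a DNA repair kinase, followed. The member that was not called was Ahnak, with 0.651, 0.634 and 1.03 ppm in total mRNA and 0.405, 0.496 and 0.442 ppm in polysome mRNA (adjusted p = 0.146). The least low of those called were Mtor (-0.54) and Celsr3 (-0.59), a cadherin of axon guidance.

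Chromatin methylation enzymes and CHD remodellers, many of which are needed for cortical development, were lower for 37 of 45 genes and higher for 1, with a median of -0.71 (41 and 0 with the column total). Kmt2d (chromosome 15 from 98831669 to 98874077), a histone methyltransferase of enhancers, had 11.2, 15.5 and 15.4 ppm in total mRNA and 3.62, 3.56 and 3.73 ppm in polysome mRNA, a ratio of -1.91 ± 0.16 (adjusted p = 2.84e-06). Ash1l had 22.5, 21.3 and 22.7 ppm in total mRNA and 6.04, 6.18 and 5.41 ppm in polysome mRNA, a ratio of -1.91 ± 0.14 (adjusted p = 1.43e-06). All 5 KMT2 genes were lower, between -1.91 and -0.52, and 7 of 8 CHD genes, with Chd7 at -1.55 and Chd8 at -0.95. Of the Polycomb subunits, Ezh2 had -0.19 (adjusted p = 0.0807) and Eed 0.37 (adjusted p = 0.154), and Suz12 was lower at -0.82. The higher member was Suv39h1 at 0.37.

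Zinc finger genes named Zfp, mostly DNA-binding repressors, were lower for 175 of 375 and higher for 29, with a median of -0.49 (270 lower and 11 higher with the column total). These shares, 46.7% lower and 7.73% higher, stand against 20.5% and 20.5% over all genes tested. Of the 375 genes 185 were expressed, of which 78 were lower and 27 higher, with a weaker median of -0.27. Among all expressed genes 26.9% were lower and 39.1% higher. Zfp97 had 0.633, 0.615 and 0.876 ppm in total mRNA and 0.111, 0.143 and 0.0492 ppm in polysome mRNA, a ratio of -2.30 ± 0.48 (adjusted p = 0.00198). Zfp969 was listed at 0 in the 3 total libraries and had 18.3, 6.61 and 22.6 ppm in the polysome libraries, and no fold is given. Zinc finger genes of this kind have close copies in the genome, so how its reads were assigned is uncertain.

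The genomic span of a gene, from the RefSeq start to its end with introns, was used as a description over 8805 expressed protein-coding genes, since no table of protein lengths was used here. In genes under 5 kb the median ratio was 0.68, and 76.7% of 983 genes were higher and 5.70% lower. From 5 to 15 kb the median was 0.39, from 15 to 50 kb it was 0.079 and from 50 to 150 kb -0.30. Genes of 150 kb or more had a median of -0.51, and 10.4% of 624 were higher and 65.2% lower. Spearman's rho of ratio and span was -0.55 across these genes, which share libraries and are not independent replicates, and -0.54 without ribosomal protein, histone and mitochondrially encoded genes. Each polysome library set against the mean of the total libraries gave a similar value, between -0.56 and -0.53. Span is a loose stand-in for protein length, since introns fill most of it. Protein length itself was not measured, so its relation to the ratio was not tested.

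**Figure D4:**
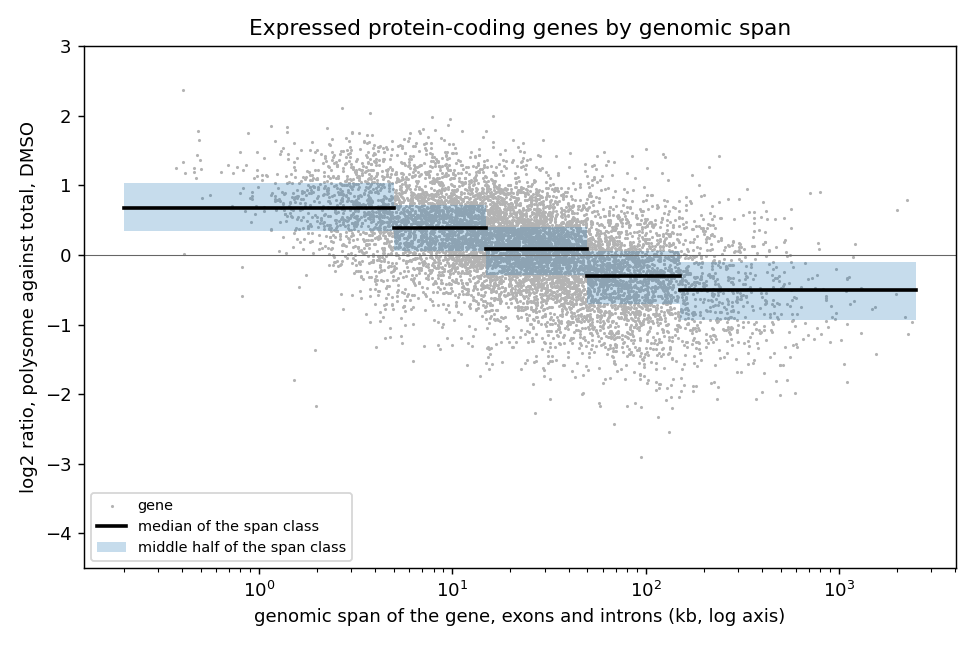
Log2 ratio of polysome to total mRNA (vertical axis) of 8805 expressed protein-coding genes (points) against genomic span (horizontal log axis, kb), DMSO cells; black lines are medians of 5 span classes and blue bands run from the lower to the upper quartile. The medians step down from 0.68 under 5 kb to -0.51 at 150 kb or more.

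Genes of the mTOR pathway itself were divided, with 19 of 49 higher and 17 lower and a median near 0 (9 higher and 26 lower with the column total). These were 38.8% higher and 34.7% lower, against 39.1% and 26.9% of expressed genes, so the higher share was near that of all expressed genes. The Ragulator, which anchors the pathway on lysosomes, had 5 of 5 genes higher with a median of 1.19. Lamtor5 (chromosome 3 from 107278858 to 107284082) had 119, 120.4 and 112 ppm in total mRNA and 382, 288 and 381 ppm in polysome mRNA, a ratio of 1.57 ± 0.14 (adjusted p = 4.01e-06). Rheb, the GTPase that activates the kinase complex, was higher at 0.65 ± 0.058 (adjusted p = 4.19e-06), with 106, 105 and 103 ppm in total mRNA and 168, 162 and 160.4 ppm in polysome mRNA. Eif4ebp1, the translational repressor inactivated by mTOR, was higher at 0.80, and Akt1 at 0.58. Among 9 subunits of the kinase complexes 3 were higher and 4 lower. Mtor had 23.8, 23.4 and 24.4 ppm in total mRNA and 17.7, 15.3 and 16.4 ppm in polysome mRNA, a ratio of -0.54 ± 0.11 (adjusted p = 0.00214), and its scaffolds Rptor and Rictor had -0.53 and -1.19. Mlst8 (0.31) and Akt1s1 (0.79) were on the higher side. The lowest was Deptor, an inhibitor of the kinase (chromosome 15 from 55112317 to 55259273), with 11.8, 9.71 and 10.4 ppm in total mRNA and 2.96, 3.92 and 2.67 ppm in polysome mRNA and a ratio of -1.74 ± 0.15 (adjusted p = 3.05e-06). Of the brakes on the pathway, Tsc1 had -0.53, Tsc2 -0.39 (adjusted p = 0.0542), and Tbc1d7 0.73.

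Lysosome genes had 25 of 50 higher and 2 lower with a median of 0.39 (11 and 8 with the column total). The proton pump, which acidifies the lysosome, had 13 of 18 higher and a median of 0.62, and the other lysosomal genes 12 of 32 and a median of 0.27. Atp6v0e, a membrane subunit of the pump, had 82.3, 89.8 and 77.0 ppm in total mRNA and 259.9, 240.2 and 257 ppm in polysome mRNA, a ratio of 1.60 ± 0.12 (adjusted p = 1.41e-06). Atp6v1a, its catalytic subunit, was lower at -0.51. Among autophagy genes 12 of 30 were higher and 6 lower (6 and 11 with the column total), or 40% and 20%, close to all expressed genes. All 5 members of the ATG8 family, which mark the autophagosome membrane, were higher, and Gabarap had 245, 242 and 223 ppm in total mRNA and 555, 511 and 568 ppm in polysome mRNA, a ratio of 1.20 ± 0.084 (adjusted p = 1.06e-06). Rb1cc1, the scaffold of the initiating kinase complex, was the lowest at -1.79 ± 0.25 (adjusted p = 0.000101).

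Cell cycle genes also varied within each phase. In the list of DNA replication and the entry into S phase 19 of 44 were higher and 6 lower, and its median of 0.11 was -0.26 with the column total (12 higher, 19 lower). Rfc4, of the clamp loader, had 40.1, 42.1 and 39.7 ppm in total mRNA and 126, 104 and 121 ppm in polysome mRNA, a ratio of 1.52 ± 0.16 (adjusted p = 1.25e-05). In the GINS complex, part of the replicative helicase, 3 of 4 genes were higher, with Gins1 at 1.27. The MCM helicase genes were nearer 0, between -0.54 and 0.35. Cdk4 was higher at 0.91, Ccnd1 had 0.10 (adjusted p = 0.292), and its relative Ccnd2 was lower at -0.71. Among mitosis genes 13 of 49 were higher and 23 lower, with a median of -0.14 (6 and 31 with the column total). Cenpe, a kinetochore motor, had a mean ± SD (n = 3) of 13.7 ± 0.50 ppm in total mRNA and 2.68 ± 0.44 ppm in polysome mRNA, with no overlap, a ratio of -2.34 ± 0.18 (adjusted p = 1.58e-06). Mki67, the proliferation marker, had 30.6, 29.8 and 32.9 ppm in total mRNA and 6.28, 5.98 and 6.92 ppm in polysome mRNA, a ratio of -2.27 ± 0.14 (adjusted p = 5.63e-07). Aspm, mutated in microcephaly, was lower at -1.83, while the regulators Mad2l1 (0.97), Cdk1 (0.94) and Birc5 (0.85) were higher.

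Replication-dependent histone mRNAs, which end in a stem-loop in place of a poly(A) tail, had 13 of 63 tested genes higher and 0 lower, with a median of 1.08 (9 and 0 with the column total). The higher share, 20.6%, was close to the 20.5% over all genes tested, and the lower share was 0 against 20.5%. Of these 63 genes 15 were expressed, of which 11 were higher and 0 lower, with a median of 1.23. Among all expressed genes 39.1% were higher and 26.9% lower. The cutoff for expressed genes also uses the polysome values, so genes high there pass it more easily. Hist1h1c, a linker histone, had 10.7, 10.4 and 9.87 ppm in total mRNA and 16.4, 17.2 and 17.0 ppm in polysome mRNA, a ratio of 0.70 ± 0.11 (adjusted p = 0.000222). Hist1h4n had 3.89, 3.67 and 6.64 ppm in total mRNA and 26.1, 13.7 and 38.0 ppm in polysome mRNA, a ratio of 2.37 ± 0.74 (adjusted p = 0.0221), and leaving out libraries took its call away (adjusted p up to 0.126). Histone genes are near-identical copies, and the sources used here do not say whether poly(A) RNA was selected, so their levels are uncertain.

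mRNAs known for control of their own translation gave mixed ratios. Ferritin mRNAs, which carry an iron-responsive element, were lower. Ftl1 (chromosome 7 from 45457944 to 45459886), the light chain, had 3436, 3467 and 3272 ppm in total mRNA and 1215, 1355 and 1370.1 ppm in polysome mRNA, a ratio of -1.37 ± 0.088 (adjusted p = 7.57e-07). Fth1 (chromosome 19 from 9980600 to 9985111), the heavy chain, had 1157, 1179 and 1149 ppm in total mRNA and 535, 470.2 and 527 ppm in polysome mRNA, a ratio of -1.19 ± 0.074 (adjusted p = 6.91e-07). Both genes were separated in every library, which a rule that named Ftl1 required. Of the other mRNAs with such elements, Slc40a1, the iron exporter, had a ratio of -1.76 from 3.76, 1.15 and 1.02 ppm in total mRNA and 0.307, 0.485 and 0.589 ppm in polysome mRNA, with total replicate 1 above the others. Of the polyamine genes, Sat1, the acetyltransferase, was higher at 1.52 ± 0.15 (adjusted p = 7.97e-06) and Oaz1, the frameshifted antizyme, at 0.94 ± 0.11 (adjusted p = 2.25e-05). Odc1 went from 0.36 to -0.012 with the column total. Over the 11 iron and polyamine genes 6 were higher and 4 lower, and the median of 0.16 was -0.21 with the column total and -0.28 with quantile normalization. The split depended on the scaling, with 3 higher and 5 lower with the column total and 1 higher and 7 lower with quantile normalization.

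Of 17 mRNAs with regulatory upstream reading frames 7 were higher and 2 lower, a split that was 0 and 7 with the column total and 1 and 8 with quantile normalization. Atf4 (chromosome 15 from 80255184 to 80257545), the stress transcription factor that such frames hold down in unstressed cells, had 290.3, 285 and 279 ppm in total mRNA and 372, 356 and 353 ppm in polysome mRNA, a ratio of 0.34 ± 0.06 (adjusted p = 0.000646), which was -0.037 with the column total and -0.33 with quantile normalization. Its polysome libraries were above its total libraries on the scale used here, and relative to the whole column they were not. Ifrd1 had 0.46 and Ibtk -0.48. Selenoproteins, in which a stop codon is read as selenocysteine, had 12 of 21 higher and 3 lower with a median of 0.57 (8 and 6 with the column total). Gpx4, which clears lipid peroxides, had 227, 230.3 and 222 ppm in total mRNA and 542, 513 and 625 ppm in polysome mRNA, a ratio of 1.30 ± 0.10 (adjusted p = 1.39e-06), while Selenow was lower at -0.67 ± 0.11 (adjusted p = 0.000447).

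Cell identity genes were not loaded as a block. Of 29 radial glia genes 6 were higher and 13 lower, with a median of -0.18 (4 and 20 with the column total). Dbi, an acyl-CoA-binding protein, was the highest at 1.45 ± 0.12 (adjusted p = 2.86e-06) and Fabp7, the brain lipid-binding protein, had 2074, 2046 and 2005 ppm in total mRNA and 4729, 3576 and 4524 ppm in polysome mRNA, a ratio of 1.06 ± 0.21 (adjusted p = 0.0012). Tnc, a matrix protein, had 35.1, 33.5 and 34.9 ppm in total mRNA and 11.0, 11.2 and 9.86 ppm in polysome mRNA, a ratio of -1.69 ± 0.11 (adjusted p = 8.3e-07), and Notch2 one of -1.48. Nes, the progenitor intermediate filament, had -1.19, against -0.078 for Vim (adjusted p = 0.549). The transcription factors Sox2 (-0.23 ± 0.06 (adjusted p = 0.00861)) and Pax6 (-0.18 ± 0.12 (adjusted p = 0.289)) were close to 0, with 110.1, 107 and 106 ppm in total mRNA and 88.9, 97.4 and 89.0 ppm in polysome mRNA for Sox2. Sox2 lost its call when some libraries were left out (adjusted p up to 0.114). Among 15 genes of intermediate progenitors 4 were higher, Hes6 the highest at 0.90, and 5 lower, Elavl4 the lowest at -0.90 (1 higher and 9 lower with the column total). The defining factor Eomes was lower at -0.53.

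Of 35 neuronal genes 22 were lower and 4 higher, with a median of -0.45 (29 and 1 with the column total). Apart from Map1b, a low member was Ncam1, a cell adhesion molecule with 76.4, 82.8 and 75.2 ppm in total mRNA and 22.2, 27.4 and 23.6 ppm in polysome mRNA and a ratio of -1.68 ± 0.10 (adjusted p = 5.63e-07). Dcx had -0.64 and Tbr1 -0.46. The higher members were Stmn2 (0.76), Syp (0.50), Tubb3 (0.47, -0.22 with quantile normalization) and Gap43 (0.28). Among interneuron and ventral genes 6 of 17 were lower (11 with the column total) and 1 higher, the neuropeptide Sst, with 508, 533 and 515 ppm in total mRNA and 951, 973 and 1036 ppm in polysome mRNA and a ratio of 0.93 ± 0.085 (adjusted p = 4.54e-06). The Dlx genes ranged from -0.56 for Dlx6 to 0.059 for Dlx1.

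Immediate early and ERK feedback genes had 15 of 37 lower and 3 higher, with a median of -0.23 (23 and 1 with the column total). Fos had -0.61, Egr1 -0.58 and Spry2, a feedback inhibitor, -0.70, whereas Jund, with 149, 163 and 139.6 ppm in total mRNA and 253, 248 and 281 ppm in polysome mRNA, was higher at 0.79 ± 0.13 (adjusted p = 0.000266). Of 20 p53 targets and BCL2 family genes 7 were higher and 5 lower (3 and 10 with the column total), or 35% and 25%, close to all expressed genes. The death effectors Bax (1.09 ± 0.10 (adjusted p = 4.51e-06)) and Bad (1.16 ± 0.12 (adjusted p = 9.16e-06)) were higher, Bax with 196, 184 and 187 ppm in total mRNA and 395, 369.6 and 448 ppm in polysome mRNA, and Bcl2, which opposes them, was lower at -0.87 ± 0.10 (adjusted p = 1.8e-05).

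RNA of other cell types took part in the same comparison, at low levels except in blood. Microglia genes summed to between 17.4 and 24.5 ppm in total mRNA, and 5 of 10 were higher and 0 lower (2 and 0 with the column total), with a median of 0.84. Endothelial, mural and meningeal genes had 3 of 22 higher and 7 lower (1 and 11 with the column total), with Fn1, a matrix protein, at -1.46 and Cldn5, a junction protein, at 0.81. The oligodendrocyte and astrocyte list had 1 of 10 higher, Olig1 (0.58), and 1 lower (0 and 3 with the column total). In the order given, shares higher were 50%, 13.6% and 10%, and shares lower 0%, 31.8% and 10%. Over all genes tested they were 20.5% and 20.5%. Only 1 microglia gene, 5 endothelial, mural and meningeal genes and 4 oligodendrocyte and astrocyte genes were expressed. Globin mRNAs diverged, as Hbb-bt had 22.0, 23.4 and 23.2 ppm in total mRNA and 80.7, 66.9 and 87.0 ppm in polysome mRNA and Hba-x 33.8, 36.4 and 34.9 ppm in total mRNA and 9.22, 10.7 and 10.2 ppm in polysome mRNA, with ratios of 1.76 ± 0.18 (adjusted p = 8.61e-06) and -1.80 ± 0.15 (adjusted p = 3.16e-06). In bulk RNA, fewer cells of a type and less RNA per cell cannot be told apart, and the part of other cells in the results above was not tested.

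The annotated 5′ end was compared with the ratio as a description. RefSeq windows of 300 bases, 250 before and 50 after the start, gave 7176 expressed genes, and a start with C and at least 4 further pyrimidines (C or T) on the transcript strand was found in 2.51% of all 32851 windows, in 3.04% of the expressed genes and in 24.1% of 58 ribosomal protein genes. A gene with several windows counted if any of them had such a start, so shares of genes and of windows are unlike measures. The 218 expressed genes with such a start had a median ratio of 0.16 and the 6958 others 0.11, a difference of 0.042 that was -0.0062 with quantile normalization. Within ribosomal protein genes the 14 with such a start had a median of 1.02 and the 44 without 0.90. Annotated starts are often some bases off, so a missing match says only that these letters do not open the window. By quartile of GC content in the first 50 bases, averaged over the windows of a gene, medians were 0.17, 0.17, 0.090 and 0.034 from the lowest to the highest quartile. The median span of the genes moved with it, from 19226 bases in the lowest to 31524.5 in the highest quartile.

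The ratio in Torin1 cells, from 6 other libraries, gives a second reading of each gene. Across the 9220 expressed genes Spearman's rho between the DMSO and the Torin1 ratio was 0.92, with genes not independent replicates. The difference between the treatments, tested within the fit, was called for 147 of 20240 genes (0.726%), 4 (0.0198%) with a higher and 143 (0.707%) with a lower ratio in Torin1. Ribosomal proteins were 67 of these 143. Their median ratio went from 0.92 in DMSO to -0.34 in Torin1, with a median difference of -1.22. Rps27 had a ratio of 1.13 in DMSO and -0.74 in Torin1, a difference of -1.88 ± 0.24 (adjusted p = 0.00221). The other TOP mRNAs included 10 of the 143, and their median went from 0.15 to -0.45. The oxidative phosphorylation list, with a median of 1.26 in DMSO and 1.17 in Torin1, had 1 of 76 genes called, and mitochondrial ribosomal proteins (0.93 and 0.83), proteasome (0.81 and 0.81), chromatin (-0.71 and -0.72) and very large protein genes (-1.57 and -1.50) had 0. Calls of 0 for a list do not show that its ratios were equal. The list of very large proteins was drawn up after values had been seen. With the replicate block the difference was called for 91 genes in place of 147.

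**Figure D5:**
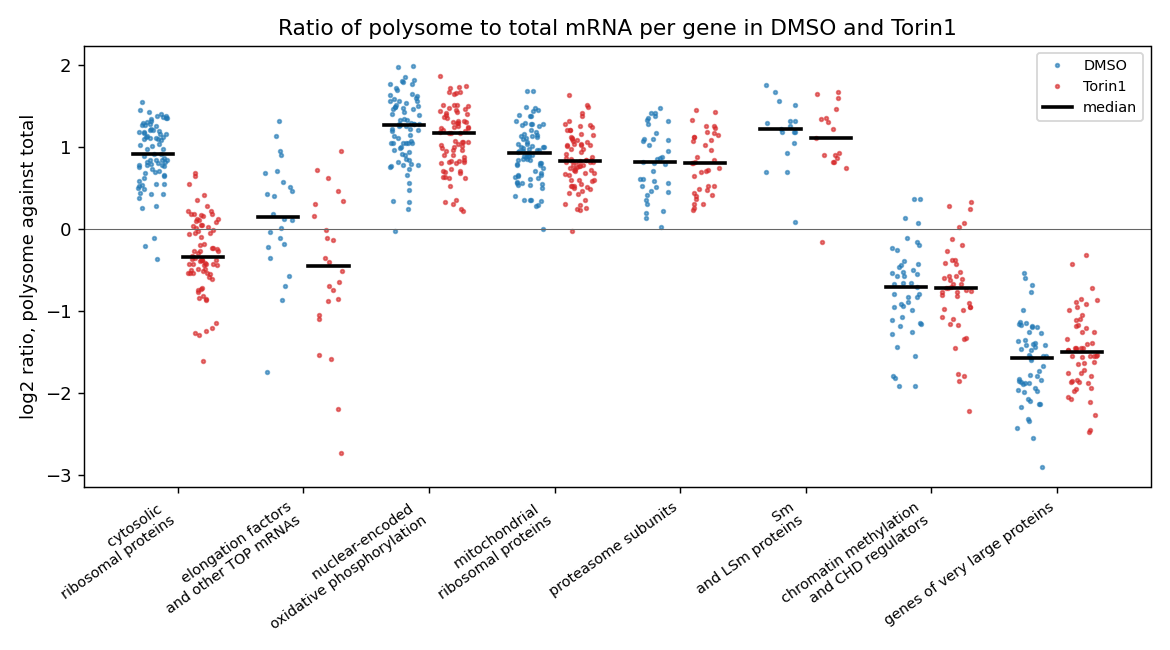
Log2 ratio of polysome to total mRNA (vertical axis) of each gene in DMSO (blue) and Torin1 (red) cells for 8 gene lists (horizontal axis), with black bars at the medians. The median of ribosomal proteins is 0.92 in DMSO and -0.34 in Torin1, and that of oxidative phosphorylation genes is 1.26 and 1.17. The lists of very large proteins and of Sm and LSm proteins were drawn up after values had been seen.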

How the data were processed

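Total and polysome mRNA of DMSO-treated and Torin1-treated progenitors was measured in 12 libraries, 4 groups of 3, grouped by title. Per the submitters' processing notes, the tools were STAR 2.7.9a and HTSeq 0.6.0 and the build mm10, without their roles. The authors deposited 1 table of a signal per gene, never below 0, for 53351 genes in 12 sample columns and 0 others, and no source used here says how the authors scaled this signal. Each deposited signal is a whole multiple of a step set by the column total rather than by a read, so depth is unknown and no counting interval can be had.

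Each column was scaled to its total and then by a trimmed mean of log ratios, written for this work, that drops a share of 0.3 by ratio and 0.05 by abundance from both tails. Genes that reached a value of 1 in no fewer than 3 libraries were tested with limma 3.58.1 in R 4.3.3 on log2(value + 1), where the pseudocount of 1 is 0.058 ppm, with 4 group means and variances that follow abundance, Benjamini-Hochberg adjustment and a two-sided threshold of 0.05. Folds on this scale understate changes of low genes. On simulated data of 19569 genes the fit recovered 69 of 100 genes changed 1.5-fold and 92 of 100 changed 2-fold in this contrast, and called 9 unchanged genes. The changed genes were few, split evenly by direction and drawn from expressed genes, with independent noise. The simulation therefore cannot decide on the scaling or on recovery among low genes.

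The 37 gene lists, 2 more drawn up after values were seen, the members and the tests were chosen with earlier results of these data known. Genes are named by rule: among expressed genes past the threshold with separated libraries, without predicted, Rik, pseudogene or accession names, the 12 highest and 12 lowest ratios. The same was done for 8 and 8 with a mean of at least 7 on the log2 ppm scale, with 2 from each list and a fixed set; other members named as examples were chosen after their values were seen. A part of the rule that needed protein lengths was not run. RefSeq (GRCm38.p6) gave starts and spans, matched by symbol for 17817 of the 20240 genes tested. The protocol takes both fractions from one lysate, so same-numbered libraries may be paired; the fit has no block, and a replicate block was an alternative. Results were recomputed with 5 other scalings, with 2 other filters, a pseudocount of 0.1, the DMSO libraries alone, 1 prior variance, a minimum of 1.5-fold, a replicate block, and each library and replicate number left out. The genomic spans and the added lists were chosen after seeing the data. A few genes are not reported here.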

Additional observations from a re-analysis of the deposited data

Results flagged for a closer look

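Among the named genes, 5 had a ratio of polysome to total mRNA that differed between Torin1 and DMSO by limma's test of the difference, given as the log2 difference with its standard error and adjusted p. Pabpc1 had -0.998 ± 0.13 (adjusted p = 0.00196), Rpl26 -1.45 ± 0.25 (adjusted p = 0.0148), Eef1a1 -1.2 ± 0.16 (adjusted p = 0.00239), Rps19 -1.96 ± 0.20 (adjusted p = 0.000386) and Tpt1 -1.49 ± 0.15 (adjusted p = 0.000377). The ratio in DMSO was lower for Pabpc1, higher for Rpl26 and Rps19, and not called for Eef1a1 and Tpt1.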

How the results depend on the processing

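Of 116 named genes, all kept direction and call with a pseudocount of 0.1, no filter, the replicate block, and scaling by the median of ratios, the upper quartile or a trimmed mean without ribosomal protein, mitochondrial and noncoding genes. With the column total 1853 genes were higher and 6708 lower, and Atf4 turned to -0.037. Gapdh, Tubb3, Ifrd1, Olig1 and Rpl41 kept their direction there but lost their call. Eef1a1, Tpt1, Pax6, Ccnd1, Hspa5 and Ahnak, not called on the main scale, were called lower with the column total. With quantile normalization Atf4 turned to -0.33, Cct5 to -0.026, Cct7 to -0.10, Tubb3 to -0.22, Gapdh to -0.26 and Rpl41 to -0.029, the correlation with span was -0.48, 13 lists in place of 24 had a median above that of all genes, and the difference for pyrimidine starts was -0.0062; the cause was not tested. A minimum of 1.5-fold left 5426 calls, 2517 of them higher, by its construction.

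Per the labels' protocol total and polysome mRNA came from one lysate, so libraries of the same number may share it, though the labels do not tie the numbers to lysates. The deviations of same-numbered DMSO libraries correlated at -0.036, -0.075 and -0.053. The replicate block gave 4043 higher and 3871 lower genes, and 91 in place of 147 with a different ratio in Torin1. Leaving out a library or a replicate number gave 6264 to 7696 calls, 3250 to 3830 higher and 3014 to 3866 lower, 60 to 157 for the Torin1 difference (67 without replicate number 1 and 60 without number 3), a span correlation of -0.55 to -0.54, 21 to 24 lists and a start difference of 0.027 to 0.069. In these fits 14 named genes lost their call at least once: Hist1h2af, Hist1h2ap, Hist1h4n, Ibtk, Ifrd1, Kdr, Npas4, Rn7s1, Rn7s2, Rpl41, Slc40a1, Snhg15, Sox2 and mt-Co2. Bins of protein length and a count model were not run, as no protein table was used here and the values are not reads. The depth in reads is unknown, so what it limits cannot be stated.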
